A study of Homo sapiens with 12 samples.

Results

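The genes described here encode the machinery of mitosis: the kinases that drive it, the spindle checkpoint, the outer kinetochore, the proteins that hold and release sister chromatids, the spindle, the cytokinesis apparatus and condensin. They are the rows of the deposited count table with 51 given symbols, and the CENP and KIF families were left out of the choice. The choice was by function but was made with earlier results of these data known, so that the counts below are descriptive. All 51 were found among the 46863 symbols of the table, and all 51 were among the 16835 genes that passed the filter on low counts. RNA was measured in SU-DHL-4, an established line of diffuse large B-cell lymphoma (DLBCL) grown from a peritoneal effusion. Every library thus came from 1 cell line, with its genotype given as wt. The 4 groups were exposed for 72 h to DMSO as the vehicle, to 1 µM Entospletinib (Ento), an inhibitor of the kinase SYK, to 0.01 µM AZD5153 (AZD), which inhibits BET proteins, or to the pair at the same doses (Ento+AZD). Each group held 3 libraries of polyadenylated RNA, numbered 1 to 3 in every group, and total counts ran from 18121993 to 24675830 per library. The study's methods speak of biologically independent samples for its data in general, while the labels of these libraries name no separate cultures. The p-values measure the spread between these libraries that is left after group and replicate number. The B cell label held, since all 7 B cell markers examined were detected in every library (MS4A1 at 1700 to 3660 CPM, PAX5 at 335 to 469 CPM). Of the 12 T cell, monocyte, stromal, epithelial and endothelial markers, CD3D, CD2, FCGR3A and COL1A2 were at 0 in all libraries, CD3G, CD14, LYZ, CSF1R, COL1A1 and EPCAM reached at most 0.374 CPM, and CD3E was at 0.481 to 2.14 CPM. PECAM1, an endothelial marker also found on blood cells, was at 11.5 to 87.3 CPM and was higher after Ento (0.84, adjusted p = 0.0111) and Ento+AZD exposure (0.81, adjusted p = 0.00261) than with DMSO on the log2 scale (edgeR's quasi-likelihood test, Benjamini-Hochberg adjusted), and its part in the results was not tested. Levels are given as CPM, the counts of a gene relative to its library's total after TMM normalization.

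In mitosis CDK1 with cyclin B starts the division, condensin compacts the chromosomes, and microtubules of the spindle attach to kinetochores, protein plates built on each centromere. The spindle checkpoint watches these attachments and holds back the anaphase-promoting complex (APC/C), a ubiquitin ligase, until all are made. The ligase then destroys securin and cyclin B, separase cuts the cohesin between sister chromatids, and the central spindle directs the cleavage of the cell. Transcripts of most of these proteins are made late in the cycle, in G2 and M, and are low in resting cells. In RNA from bulk cells a smaller share of cells in these phases and less RNA per dividing cell cannot be told apart.

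Promoters of such genes often carry TTTGAA, the core of the cell cycle genes homology region to which MuvB complexes bind, and CCAAT, the box bound by NF-Y. RefSeq promoter entries of GRCh38.p14 were matched by symbol to 42 of the 51 genes, and AURKA, BUB3, TTK, KNL1, BIRC5, TPX2, RACGAP1, UBE2C and FOXM1 had none. The 250 bases before the start were searched on both strands for TTTGAA (or TTCAAA) and for CCAAT (or ATTGG), which can overlap by 1 base. At least 1 TTTGAA was present for 21 of the 42 genes, against 12.1% of the 10473 tested genes with an entry and 16.1% of all 27305 genes with one. CCAAT was found for 29 (69.0%, against 41.3% and 37.0%) and both motifs for 17 (40.5%, against 4.64% and 5.79%). A gene with several entries counted once, if any of them held the motif, which applied to 10 of the 42. The windows of the 4 genes with the largest decreases after Ento+AZD exposure among those with both motifs, and that of NSL1, the gene with the smallest decrease, are shown 5′ to 3′ on the gene's strand. Capitals mark the matches to either motif on either strand. They are SPC25 (chr2:168890431-168890680, minus strand), ESPL1 (chr12:53268049-53268298, plus strand), CDK1 (chr10:60778081-60778330, plus strand, 1 of its entries), PLK1 (chr16:23678639-23678888, plus strand) and NSL1 (chr1:212791778-212792027, minus strand).
SPC25: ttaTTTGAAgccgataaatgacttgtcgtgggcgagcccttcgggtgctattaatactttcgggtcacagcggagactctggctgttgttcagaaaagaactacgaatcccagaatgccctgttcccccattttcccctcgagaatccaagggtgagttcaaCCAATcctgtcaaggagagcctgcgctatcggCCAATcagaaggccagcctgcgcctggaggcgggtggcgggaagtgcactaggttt
ESPL1: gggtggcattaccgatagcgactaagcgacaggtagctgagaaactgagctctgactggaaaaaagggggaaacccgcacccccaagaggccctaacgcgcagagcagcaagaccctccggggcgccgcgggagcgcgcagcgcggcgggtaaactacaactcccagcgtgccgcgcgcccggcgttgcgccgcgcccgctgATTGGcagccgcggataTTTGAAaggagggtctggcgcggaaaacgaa
CDK1: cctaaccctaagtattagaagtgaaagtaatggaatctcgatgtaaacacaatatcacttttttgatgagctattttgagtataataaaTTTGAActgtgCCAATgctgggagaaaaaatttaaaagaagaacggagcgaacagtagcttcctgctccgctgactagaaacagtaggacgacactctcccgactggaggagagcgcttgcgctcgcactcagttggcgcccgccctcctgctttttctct
PLK1: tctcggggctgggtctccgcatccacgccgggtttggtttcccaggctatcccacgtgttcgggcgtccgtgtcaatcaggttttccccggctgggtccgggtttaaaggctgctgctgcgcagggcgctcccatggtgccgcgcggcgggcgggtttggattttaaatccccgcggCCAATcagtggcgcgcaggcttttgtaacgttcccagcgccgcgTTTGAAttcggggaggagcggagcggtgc
NSL1: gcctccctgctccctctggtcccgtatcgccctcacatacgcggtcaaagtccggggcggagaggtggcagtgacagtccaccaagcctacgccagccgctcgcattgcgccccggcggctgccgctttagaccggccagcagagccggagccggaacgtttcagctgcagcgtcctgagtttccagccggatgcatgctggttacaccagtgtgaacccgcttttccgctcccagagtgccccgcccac

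In the SPC25 window TTTGAA begins 247 bases before the start and CCAAT boxes begin 88 and 56 bases before it. The ESPL1 window has the TTTGAA letters 31 bases before the start next to a reversed CCAAT box at 48, the PLK1 window has them at 29 with a CCAAT box at 73, and the CDK1 window at 161 with a CCAAT box at 150. The NSL1 window holds neither motif. The RefSeq starts of SPC25 and PLK1 lie inside the longer spans that GENCODE v44 gives these genes. Across the 42 genes the responses with and without the letters overlapped. After Ento+AZD exposure the 21 genes with TTTGAA had a median log2 fold change of −1.35 (−1.77 to −0.72) and the 21 without it −1.13 (−1.72 to −0.23). The 17 with both motifs had −1.35 (−1.77 to −0.80) and the 9 with neither −1.175 (−1.585 to −0.23), and every gene of both sets was lower. The 5 windows printed were picked by size of change and do not stand for this overlap. Among tested genes outside the 51, the 469 with both motifs had a median of −0.13, with 31.1% lower at an adjusted p under 0.05, and the 5527 with neither had −0.01, with 23.3% lower. These matches describe letters in a window and were not tested as binding sites.

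After Ento+AZD exposure every one of the 51 genes was lower than with DMSO (edgeR's quasi-likelihood test, Benjamini-Hochberg adjusted, threshold 0.05), against a background of 20.8% of all tested genes. The decrease exceeded 2-fold in 36 of them, which with the adjusted p is the study's threshold for a differentially expressed gene (DEG), against 4.89% of all genes. None of the 51 was higher, where 19.2% of all genes were. Log2 fold changes lay between −1.82 for UBE2C, which fell by 71.7%, and −0.23 for NSL1, which fell by 14.5%, with a median of −1.19 beside 0.01 over all genes. In 47 of the 51 every Ento+AZD library lay below every DMSO library, which was so for 20.0% of all genes; NSL1, SKA3, HMMR and CKAP2 overlapped.

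**Figure D1:**
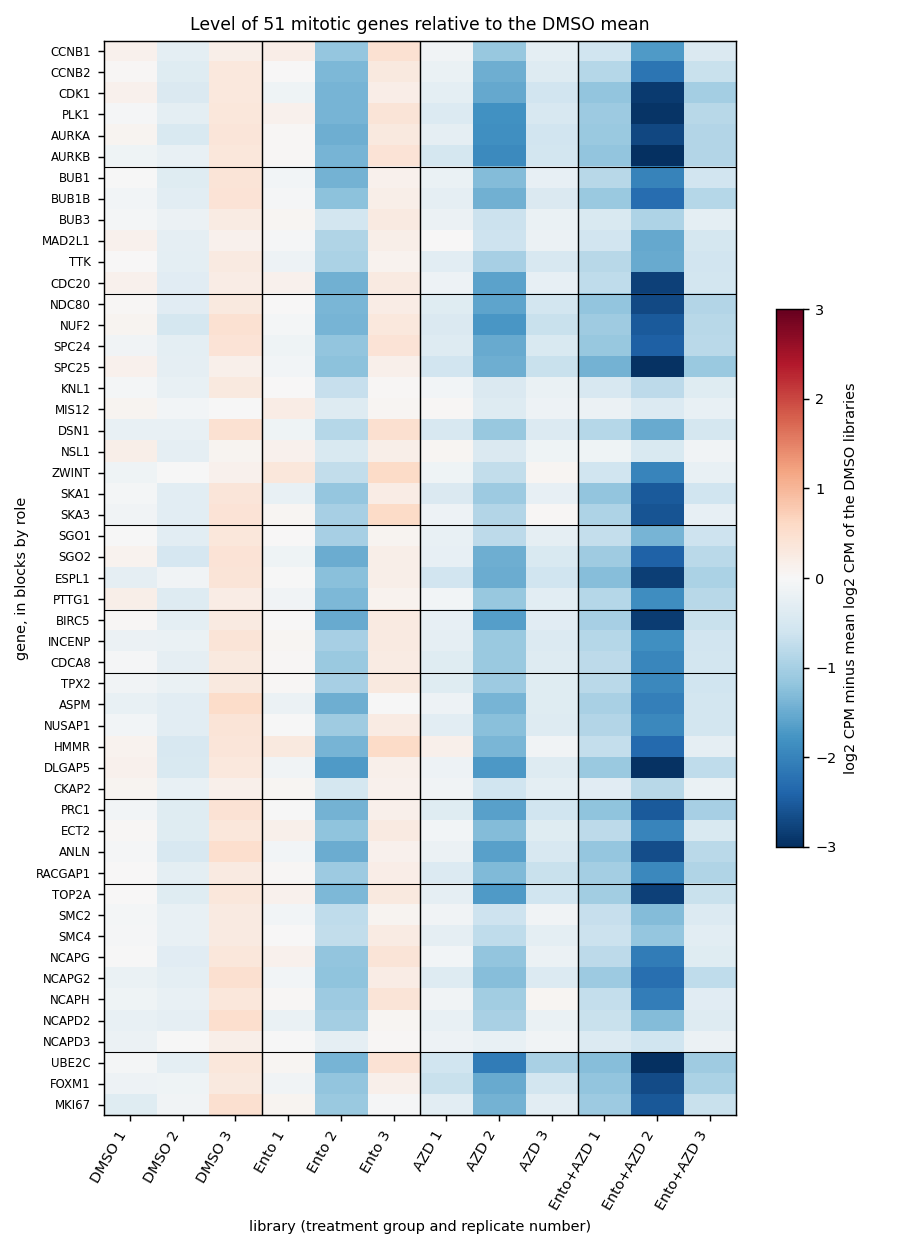
Level of the 51 mitotic genes (rows, in blocks by role) in the 12 libraries (columns, by group and replicate number), as log2 CPM minus the mean log2 CPM of the 3 DMSO libraries of that gene, with blue below and red above that mean. The Ento+AZD columns are blue in nearly every row, and the columns of replicate 2 are the deepest blue of each exposed group.

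The libraries of replicate number 2 stood apart in these genes. The CPM of the 51 genes summed to 8205, 7131 and 10901 with DMSO in replicates 1, 2 and 3, to 8656, 4083 and 9874 with Ento, to 7203, 3822 and 6706 with AZD, and to 4745, 2366 and 5775 with Ento+AZD. Replicate 2 held the lowest library of its group for 45 of the 51 genes with DMSO and for all 51 in each of the other groups. Within the same replicate number the median difference between Ento+AZD and DMSO was −0.84, −1.83 and −0.97 log2 CPM in replicates 1, 2 and 3, and it was negative for all 51 genes in each of them. Over all genes the same medians were 0.01, −0.01 and 0.02. The share of all genes that were lower in every replicate number is not given, here or below. What sets replicate 2 apart was not tested.

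Most of these calls rest on the replicate number as a term of the model, which the study's batch term was taken to be. Without it the median was −1.10, close to the −1.19 with it, but 5 of the 51 genes had an adjusted p under 0.05, beside 7.79% of all genes: SPC25 (0.0280), RACGAP1 (0.0377), FOXM1 (0.0422), ESPL1 (0.0456) and TTK (0.0477), all from edgeR's quasi-likelihood test, Benjamini-Hochberg adjusted. At an unadjusted p under 0.05, 42 were lower, against 17.6% of all genes. With replicate 2 left out altogether, a choice made after its libraries were seen, 49 of the 51 genes were lower with a median of −0.91, against 17.2% of all genes. MIS12 and NSL1, the genes with the smallest decreases, were the pair that lost the call there and under DESeq2.

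**Figure D2:**
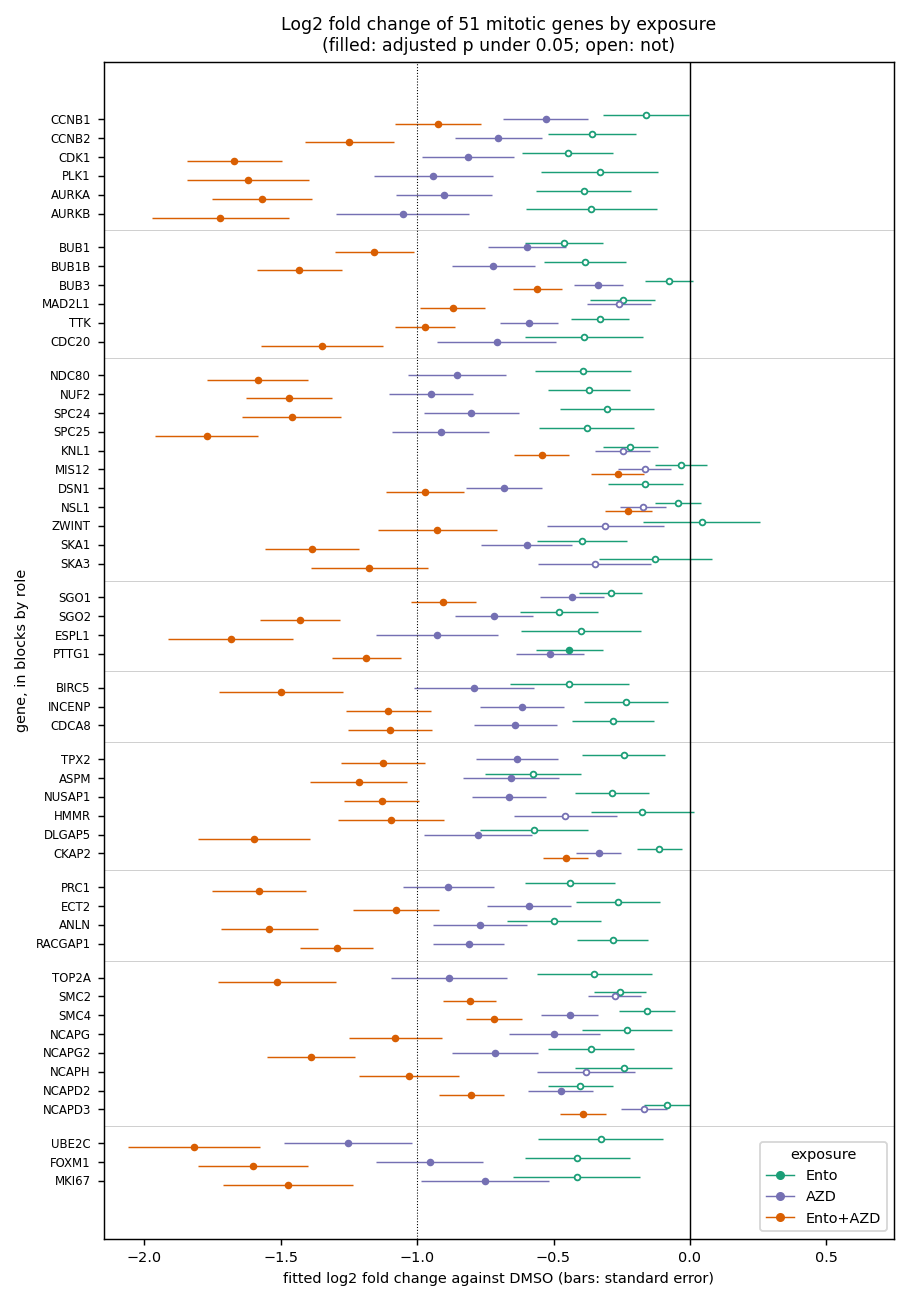
Fitted log2 fold change against DMSO (horizontal axis) of each of the 51 genes (rows, in blocks by role) after Ento, AZD and Ento+AZD exposure, with the standard error as a bar, filled points for an adjusted p under 0.05 and a dotted line at −1. The Ento+AZD points are the farthest left in every row and run from −1.82 for UBE2C to −0.23 for NSL1, while all Ento points but that of PTTG1 are open.

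Counts by role, here and in the paragraphs that follow, stand against shares of all tested genes. These were 20.8% lower and 4.89% past 2-fold with Ento+AZD, 12.7% lower with AZD and 3.66% lower with Ento. Without the replicate number 7.79% were lower with Ento+AZD. The mitotic kinases and their cyclins were strongly lowered, with a median log2 fold change of −1.60 after Ento+AZD exposure and 5 of 6 genes past the 2-fold threshold. CDK1, the kinase that triggers mitosis (chromosome 10, 60778331 to 60794852, plus strand of GRCh38), was measured at 179.7, 121 and 205 CPM with DMSO, 151, 62.8 and 188 CPM with Ento, 134, 57.02 and 110.3 CPM with AZD and 72.3, 22.6 and 81.6 CPM with Ento+AZD, in the order of replicates 1 to 3 as in all such series that follow. Every Ento+AZD library was below every DMSO library, and replicate 2 was the lowest of each group. CDK1 fell by 68.6% with Ento+AZD (log2 fold change −1.67, SE 0.17, adjusted p = 1.37e-05, edgeR's quasi-likelihood test, Benjamini-Hochberg adjusted). AURKB, the kinase of the chromosomal passenger complex, which corrects faulty attachments, was at 90.1, 84.4 and 123 CPM with DMSO, 99.7, 37.4 and 129.7 CPM with Ento, 67.4, 26.03 and 66.3 CPM with AZD and 42.99, 11.1 and 52.9 CPM with Ento+AZD. Its AZD and Ento+AZD libraries were all below the DMSO libraries, whereas with Ento it was lower in replicate 2 and slightly higher in replicates 1 and 3. The log2 fold change of AURKB was −1.72 with Ento+AZD (SE 0.25, adjusted p = 1.33e-04, same test), and it was 1 of the 2 genes to pass the DEG threshold with AZD alone (−1.05, SE 0.24, adjusted p = 0.00839). PLK1, a kinase of spindle assembly and mitotic exit, had −1.62, AURKA, which matures the spindle poles, −1.57, and cyclin B2 (CCNB2) −1.25. Cyclin B1 (CCNB1), the partner of CDK1, moved least, with −0.92 (SE 0.16), and did not reach 2-fold. All 6 were also lower with AZD alone at an adjusted p under 0.05, and none passed it with Ento alone. When the replicate number was dropped none of the 6 kept its Ento+AZD call (CDK1 adjusted p = 0.0554, AURKB 0.0836, CCNB1 0.174, same test).

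**Figure D3:**
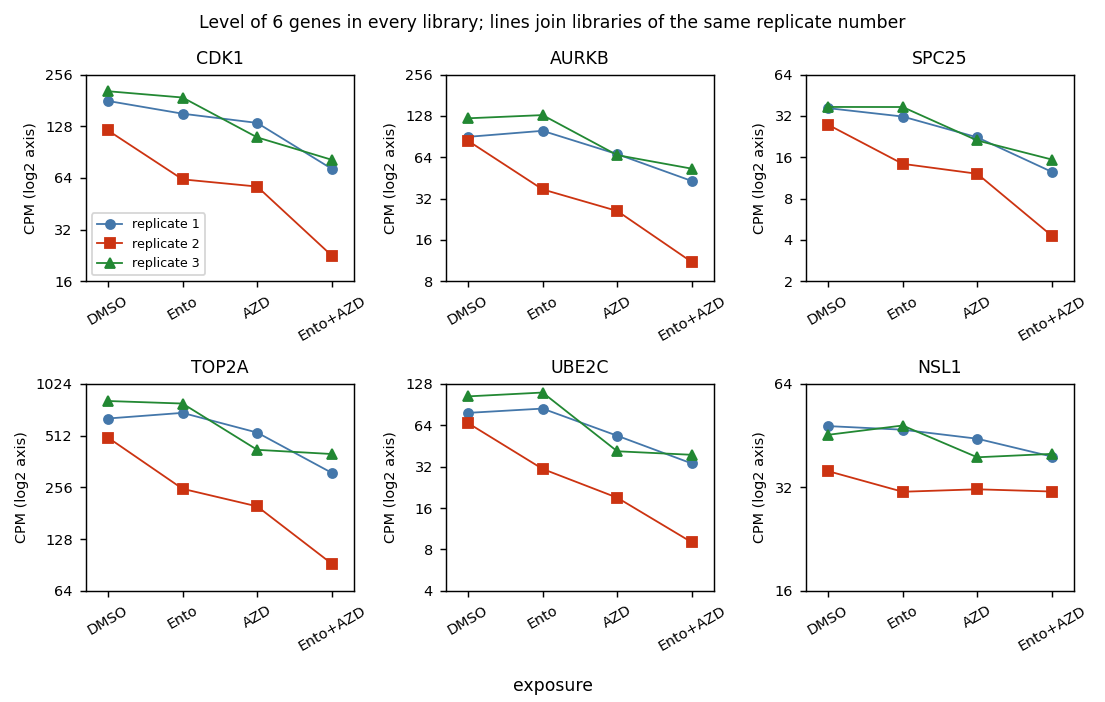
CPM on a log2 axis of CDK1, AURKB, SPC25, TOP2A, UBE2C and NSL1 in each of the 12 libraries, by exposure, with lines that join the libraries of 1 replicate number. In the first 5 genes all 3 lines end lower with Ento+AZD than they start with DMSO, and the line of replicate 2 runs below the others and already drops with Ento. NSL1 spans 31.1 to 48.4 CPM in all.

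The spindle checkpoint genes moved by less, with a median of −1.06 after Ento+AZD exposure and 3 of 6 past 2-fold. BUB1B (BubR1), which binds and blocks CDC20, was at 153, 130.2 and 218 CPM with DMSO, 159, 69.3 and 183 CPM with Ento, 136, 60.5 and 121 CPM with AZD and 75.5, 33.5 and 89.9 CPM with Ento+AZD. All Ento+AZD libraries were below all DMSO libraries, and its log2 fold change of −1.43 (SE 0.16, adjusted p = 1.71e-05, edgeR's quasi-likelihood test, Benjamini-Hochberg adjusted) was the largest decrease of the group. CDC20 itself, the APC/C activator that the checkpoint restrains, had −1.35 (SE 0.22) and its Ento+AZD library of replicate 2 was at 16.8 CPM against 92.3 CPM with DMSO. BUB1, a kinase that recruits the checkpoint proteins to kinetochores, had −1.16, TTK (MPS1), the kinase that starts the signal, −0.97, and MAD2L1 (MAD2), whose change of fold carries it, −0.87. BUB3, the adaptor that docks BUB1 and BubR1, was at 196, 178 and 239 CPM with DMSO, 209, 139 and 244 CPM with Ento, 181, 130.1 and 177 CPM with AZD and 147, 107 and 166 CPM with Ento+AZD. It too was below every DMSO library in all 3 Ento+AZD libraries, but by 32.2% (log2 fold change −0.56, SE 0.09, adjusted p = 2.60e-04, same test). With AZD alone 5 of the 6 were lower, MAD2L1 being the exception (−0.26, 95% interval −0.51 to −0.01). TTK alone of this group kept its Ento+AZD call without the replicate number.

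At the outer kinetochore, where spindle microtubules end, 6 of 11 genes passed 2-fold after Ento+AZD exposure. The Ndc80 complex, the rod that grips the microtubule, has 4 subunits, and their log2 fold changes after Ento+AZD exposure were −1.58 for NDC80, −1.47 for NUF2, −1.46 for SPC24 and −1.77 for SPC25, all past 2-fold. The Mis12 complex anchors that rod to the centromere, and of its subunits MIS12 had −0.27, NSL1 −0.23 and DSN1 −0.97. KNL1, the scaffold on which checkpoint proteins gather, had −0.54. This order of values is a description, and the difference between the complexes was not tested. SPC25, whose promoter window is shown above, was at 36.4, 27.6 and 37.2 CPM with DMSO, 31.7, 14.3 and 37.1 CPM with Ento, 22.3, 12.1 and 21.2 CPM with AZD and 12.5, 4.29 and 15.4 CPM with Ento+AZD. Every AZD and Ento+AZD library of SPC25 was below every DMSO library, and replicate 2 with Ento+AZD was the lowest of the 12. SPC25 fell by 70.7% with Ento+AZD (log2 fold change −1.77, SE 0.19, adjusted p = 1.57e-05, edgeR's quasi-likelihood test, Benjamini-Hochberg adjusted) and kept the call without the replicate number (adjusted p = 0.0280).

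NSL1, in contrast, was at 48.2, 35.7 and 45.5 CPM with DMSO, 47.1, 31.1 and 48.4 CPM with Ento, 44.3, 31.6 and 39.1 CPM with AZD and 39.3, 31.1 and 40.1 CPM with Ento+AZD. Its groups overlapped, and in each the library of replicate 2 was the lowest. Its log2 fold change of −0.23 (SE 0.08, adjusted p = 0.0464, edgeR's quasi-likelihood test, Benjamini-Hochberg adjusted) was just past the threshold, as was that of MIS12 (adjusted p = 0.0401). Without the replicate number the adjusted p was 0.410 for NSL1 and 0.248 for MIS12. NDC80 was at 114, 87.9 and 136 CPM with DMSO, 112, 43.2 and 129 CPM with Ento, 85.6, 37.04 and 75.8 CPM with AZD and 48.5, 16.9 and 60.5 CPM with Ento+AZD. Its AZD libraries and its Ento+AZD libraries were all below the DMSO libraries, and it fell by 66.7% with Ento+AZD (SE of the log2 fold change 0.18, adjusted p = 2.62e-05, same test). SKA1 and SKA3, subunits of a complex that stabilizes the grip on microtubules, had −1.38 and −1.18, and ZWINT, which links KNL1 to the checkpoint machinery, had −0.93. With AZD alone 6 of the 11 outer kinetochore genes were lower, against 12.7% of all genes. KNL1, MIS12, NSL1, ZWINT and SKA3 were not called, with log2 fold changes from −0.35 (95% interval −0.79 to 0.10) to −0.17 (−0.37 to 0.04).

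The genes that release sister chromatids were lower together, with 3 of 4 past 2-fold after Ento+AZD exposure. ESPL1 (separase), the protease that cuts cohesin at anaphase, was at 114, 127 and 180.3 CPM with DMSO, 137, 57.8 and 155 CPM with Ento, 92.9, 49.4 and 91.2 CPM with AZD and 56.3, 19.5 and 71.6 CPM with Ento+AZD. Its AZD and Ento+AZD libraries lay below all DMSO libraries, and it fell by 68.9% with Ento+AZD (log2 fold change −1.68, SE 0.23, adjusted p = 7.91e-05, edgeR's quasi-likelihood test, Benjamini-Hochberg adjusted), a call it kept without the replicate number (adjusted p = 0.0456). PTTG1 (securin), the inhibitor of separase, was at 188, 127 and 196 CPM with DMSO, 155, 65.6 and 181 CPM with Ento, 159, 76.05 and 135 CPM with AZD and 92.3, 46.3 and 94.8 CPM with Ento+AZD. In all 3 replicate numbers PTTG1 was lower with Ento than with DMSO, with differences of −0.28, −0.96 and −0.12 log2 CPM, yet the groups overlapped, since DMSO replicate 2 was below Ento replicates 1 and 3. It was the 1 gene of the 51 called after Ento exposure alone (log2 fold change −0.44, SE 0.12, adjusted p = 0.0406, same test), and with Ento+AZD it had −1.19 (SE 0.13). Counts of PTTG1 can be shared with its near-identical copy PTTG3P, which held 99 to 453 counts per library. The shugoshins, which shield cohesin until anaphase, had −1.43 (SGO2, SE 0.15) and −0.90 (SGO1, SE 0.12). Neither of them nor PTTG1 was called once the replicate number was dropped.

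All 3 chromosomal passenger subunits, which carry AURKB to the centromere and then to the central spindle, passed the DEG threshold with Ento+AZD. BIRC5 (survivin) was at 131, 104 and 153 CPM with DMSO, 128, 45.2 and 155 CPM with Ento, 108, 40.5 and 101 CPM with AZD and 64.1, 17.7 and 80.7 CPM with Ento+AZD. Every Ento+AZD library was below every DMSO library, and with Ento the differences from the DMSO library of the same number were −0.03, −1.21 and 0.02 log2 CPM. BIRC5 fell by 64.6% with Ento+AZD (log2 fold change −1.50, SE 0.23, adjusted p = 1.77e-04, edgeR's quasi-likelihood test, Benjamini-Hochberg adjusted). INCENP, the scaffold that activates AURKB, and CDCA8 (borealin), which binds the nucleosome, had −1.11 (SE 0.16) and −1.10 (SE 0.15). The group was also lower with AZD alone, at −0.79, −0.61 and −0.64 for BIRC5, INCENP and CDCA8. The Ento+AZD calls of all 3 were lost without the replicate number, with an adjusted p of 0.125, 0.0705 and 0.0867 in the same order (same test).

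Among the genes of spindle assembly 5 of 6 passed 2-fold after Ento+AZD exposure. DLGAP5 (HURP), which stabilizes microtubules near the chromosomes, was at 135, 90.8 and 156 CPM with DMSO, 115, 38.4 and 138 CPM with Ento, 112, 37.6 and 94.98 CPM with AZD and 57.2, 15.9 and 73.6 CPM with Ento+AZD. With Ento+AZD all libraries were below those with DMSO, and DLGAP5 fell by 66.96% (log2 fold change −1.60, SE 0.20, adjusted p = 5.09e-05, edgeR's quasi-likelihood test, Benjamini-Hochberg adjusted). ASPM, which focuses microtubules at the spindle poles, had −1.21, TPX2, the activator of AURKA, and NUSAP1, which bundles spindle microtubules, both −1.13, and HMMR, another spindle pole protein, −1.10. CKAP2, also a microtubule-binding protein, was at 358, 289 and 377 CPM with DMSO, 356, 236 and 368 CPM with Ento, 314, 224 and 275 CPM with AZD and 266, 192 and 296 CPM with Ento+AZD. DMSO replicate 2 was below Ento+AZD replicate 3, so that the groups overlapped, and its log2 fold change was −0.46 (SE 0.08, adjusted p = 6.75e-04, same test). With AZD alone every gene of the 6 but HMMR was called (−0.46 for HMMR, 95% interval −0.86 to −0.05). No Ento+AZD call of this group remained without the replicate number, and the adjusted p there ran from 0.0710 for TPX2 to 0.259 for HMMR (same test).

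The 4 genes of the central spindle and cytokinesis were all DEGs after Ento+AZD exposure. PRC1, which bundles the antiparallel microtubules of the central spindle, was at 122, 101 and 176 CPM with DMSO, 127, 48.7 and 144 CPM with Ento, 99.9, 41.9 and 85.3 CPM with AZD and 56.3, 22.7 and 65.2 CPM with Ento+AZD. All AZD and Ento+AZD libraries of PRC1 were below all DMSO libraries, and it fell by 66.6% with Ento+AZD (log2 fold change −1.58, SE 0.17, adjusted p = 1.71e-05, edgeR's quasi-likelihood test, Benjamini-Hochberg adjusted). ANLN (anillin), the scaffold of the contractile ring, had −1.54 (SE 0.18), RACGAP1, a subunit of centralspindlin, −1.30 (SE 0.13), and ECT2, the exchange factor that activates RhoA at the cleavage site, −1.08 (SE 0.16). RACGAP1 had the smallest adjusted p-value of the 51 genes in the comparison with DMSO (1.28e-05, same test), and it was the only one of the 4 to keep the call without the replicate number (adjusted p = 0.0377); PRC1 missed it narrowly (0.0517). Exons of MATCAP2 and AQP6 overlap those of ANLN and RACGAP1 on the opposite strand.

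Chromosome compaction genes were lower with Ento+AZD too, 4 of the 8 by more than 2-fold, and the subunits of condensin spanned a wide range. TOP2A, the topoisomerase that untangles sister DNAs, was at 644, 499 and 815 CPM with DMSO, 695, 251 and 787 CPM with Ento, 534, 198 and 423 CPM with AZD and 311, 91.9 and 400.2 CPM with Ento+AZD. Its Ento+AZD libraries were all below the DMSO libraries, while with Ento the differences within replicate numbers were 0.11, −0.99 and −0.05 log2 CPM. TOP2A fell by 65.01% with Ento+AZD (log2 fold change −1.51, SE 0.22, adjusted p = 1.10e-04, edgeR's quasi-likelihood test, Benjamini-Hochberg adjusted). SMC2 and SMC4, the ATPases common to both condensins, had −0.81 and −0.72. The subunits of condensin I, which acts after the nuclear envelope breaks down, had −1.08 (NCAPG), −1.03 (NCAPH) and −0.80 (NCAPD2). Those of condensin II, which is nuclear throughout the cycle, lay at both ends, with −1.39 for NCAPG2 (SE 0.16, adjusted p = 2.64e-05) and −0.39 for NCAPD3 (SE 0.08, adjusted p = 0.00227, same test). NCAPD3 was at 114, 127 and 144 CPM with DMSO, 126, 107 and 130.4 CPM with Ento, 114, 109 and 119 CPM with AZD and 96.8, 84.9 and 113 CPM with Ento+AZD. Even at that small size all Ento+AZD libraries of NCAPD3 were below all DMSO libraries. With AZD alone 5 of the 8 were lower, and SMC2, NCAPH and NCAPD3 were not called. None of the 8 kept its Ento+AZD call without the replicate number (NCAPD3 adjusted p = 0.0544, NCAPG2 0.0561, TOP2A 0.111).

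UBE2C, the ubiquitin-conjugating enzyme of the APC/C, had the largest decrease of the 51 genes. It was at 78.8, 66.5 and 104 CPM with DMSO, 84.7, 30.8 and 111 CPM with Ento, 53.7, 19.03 and 41.4 CPM with AZD and 33.8, 9.01 and 39.04 CPM with Ento+AZD. With AZD and with Ento+AZD all libraries were below all DMSO libraries, and with Ento the libraries of replicates 1 and 3 were above their DMSO partners and that of replicate 2 below. UBE2C fell by 71.7% with Ento+AZD (log2 fold change −1.82, SE 0.24, adjusted p = 6.69e-05, edgeR's quasi-likelihood test, Benjamini-Hochberg adjusted) and by 58.1% with AZD alone (−1.25, SE 0.24, adjusted p = 0.00283). FOXM1, a transcription factor of G2 and M phase genes, had −1.60 with Ento+AZD (SE 0.20) and kept its call without the replicate number, where UBE2C did not (adjusted p = 0.0654, same test). MKI67, which encodes the proliferation marker Ki-67, was at 668, 801 and 1205 CPM with DMSO, 921, 397 and 845 CPM with Ento, 696, 323 and 689.8 CPM with AZD and 404, 147 and 544 CPM with Ento+AZD. Its highest library was DMSO replicate 3, and its Ento+AZD libraries were all below the DMSO libraries. MKI67 had a log2 fold change of −1.47 with Ento+AZD (SE 0.24, adjusted p = 2.86e-04, same test), and an adjusted p of 0.0744 without the replicate number.

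After exposure to AZD alone 41 of the 51 genes were lower (edgeR's quasi-likelihood test, Benjamini-Hochberg adjusted), against 12.7% of all tested genes, and none was higher, against 9.57% of all genes and with none higher at an unadjusted p under 0.05 by edgeR or DESeq2. The median log2 fold change was −0.65 beside 0.01 over all genes. AURKB and UBE2C alone were DEGs, against 2.53% of all genes. In 18 genes every AZD library was below every DMSO library, against 12.7% of all genes, among them PLK1, AURKB, NDC80, SPC25, ESPL1, PRC1, UBE2C and FOXM1. Within replicate numbers the median differences were −0.24, −0.93 and −0.71 log2 CPM, and 44 genes were lower in all 3, without a share of all genes beside it. The exceptions were ZWINT, ASPM, HMMR, NCAPH, NCAPD2, NCAPD3 and MKI67, none of which was lower with AZD than with DMSO in replicate 1. With the replicate number dropped no gene of the 51 was called, against 1.31% of all genes lower, and 1 was lower at an unadjusted p under 0.05, against 10.9%. Without AZD replicate 3 the count was 14, against 4.72% of all genes, and without all 4 libraries of replicate 3 it was 17, against 3.88%. Without the 4 libraries of replicate 2 it was 36, against 9.27% of all genes, with a median log2 fold change of −0.47. DESeq2 called 36, against 11.4%.

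Exposure to Ento alone gave 1 call among the 51 genes, PTTG1, against 3.66% of all genes lower (edgeR's quasi-likelihood test, Benjamini-Hochberg adjusted), and none higher, against 4.66% of all genes, with none higher at an unadjusted p under 0.05 in edgeR or DESeq2. At an unadjusted p under 0.05, 22 of the 51 were lower, against 11.5% of all genes, and DESeq2 called 5, against 3.84%. Without the filter on low counts 33 were called lower, against 3.52%. The median log2 fold change was −0.33 beside 0.01 over all genes, but the replicate numbers differed. In replicate 2 all 51 genes were lower with Ento than with DMSO, with a median difference of −0.89 log2 CPM, whereas the medians in replicates 1 and 3 were 0.06 and −0.08. In all 3 replicate numbers 15 genes were lower, a count without a share of all genes beside it. No gene had its Ento libraries all below its DMSO libraries, against 7.08% of all genes, and none was a DEG, against 0.535%. With replicate 2 left out the median was −0.04, no gene was called lower, and ZWINT was called higher (log2 fold change 0.45, adjusted p = 0.0216, same test). The count of genes lower was 15 without DMSO replicate 1, against 3.81% of all genes. It was 4 without AZD replicate 1 (3.76%), 4 without AZD replicate 3 (3.35%) and 2 without replicate 1 of every group (0.972%). Without Ento+AZD replicate 2 it was 2, against 4.27%, and so near the background. It was 0 without any 1 of DMSO replicate 2, Ento replicates 1 and 2, AZD replicate 2 and Ento+AZD replicates 1 and 3, against 0.858% to 3.33%. In the fit of all libraries ZWINT had 0.04 (95% interval −0.41 to 0.50). The intervals of CDK1 (−0.81 to −0.09), AURKB (−0.87 to 0.15) and TOP2A (−0.80 to 0.10) take 1 Ento effect for all replicate numbers. They were not adjusted for the number of genes, and none of these genes was called with Ento. The TOP2A difference in replicate 2, given above, lay outside its interval.

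**Figure D4:**
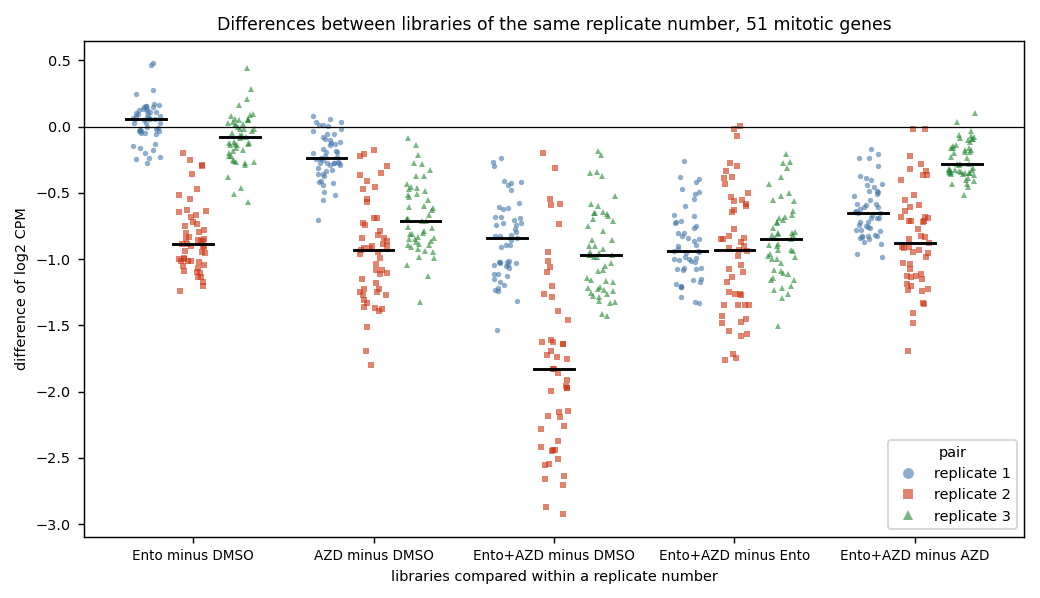
Difference of log2 CPM between libraries of the same replicate number (vertical axis) for each of the 51 genes (points) in 5 comparisons, by replicate number, with the median as a black bar. For Ento minus DMSO the points of replicates 1 and 3 lie around 0 (medians 0.06 and −0.08) and those of replicate 2 around −0.89, while for Ento+AZD minus Ento the 3 medians lie between −0.94 and −0.85.

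Adding AZD to Ento lowered most of the genes. Against Ento alone 49 of the 51 were lower after Ento+AZD exposure (edgeR's quasi-likelihood test, Benjamini-Hochberg adjusted), against 12.2% of all genes, and 21 of them were DEGs, against 2.47%. None was higher, against 8.27% of all genes, also at an unadjusted p under 0.05 and with DESeq2. MIS12 (−0.23, 95% interval −0.44 to −0.03) and NSL1 (−0.18, −0.36 to −0.00029) were not called. This was the most even comparison across replicates, with median differences of −0.94, −0.93 and −0.85 log2 CPM in replicates 1, 2 and 3 and a median log2 fold change of −0.92. The strongest were UBE2C (−1.49, SE 0.24), SPC25 (−1.39, SE 0.19) and AURKB (−1.36, SE 0.25), the last with an adjusted p of 0.00205 (same test). No gene separated the groups completely, against 11.7% of all genes, and in all 51 the lowest Ento library was that of replicate 2. In the fit that leaves the replicate number out none was called, against 0.808% of all genes lower, and 26 were lower at an unadjusted p under 0.05, against 10.9%. With replicate 2 left out 48 were lower, against 9.83%.

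Adding Ento to AZD was the other comparison of the pair with a single agent. Against AZD alone 28 of the 51 genes were lower after Ento+AZD exposure (edgeR's quasi-likelihood test, Benjamini-Hochberg adjusted), against 6.04% of all genes, none by more than 2-fold (0.422% of all genes), and none was higher, against 5.85%, nor at an unadjusted p under 0.05 in edgeR or DESeq2. The median log2 fold change was −0.61. CDK1 (−0.86, SE 0.17, adjusted p = 0.00760) and SPC25 (−0.86, SE 0.19, adjusted p = 0.0124) had the largest decreases by the same test. Median differences within replicate numbers were −0.65, −0.88 and −0.28 log2 CPM. In all 3 of them 49 genes were lower, with NSL1 and CKAP2 as the exceptions and no share of all genes beside it. UBE2C and AURKB, the DEGs of AZD alone, were not called here (−0.56, 95% interval −1.08 to −0.05, and −0.67, −1.20 to −0.14). No gene separated the groups completely, against 7.99% of all genes. The count of 28 depended on single libraries, and the share of all genes lower follows each count. It was 4 without AZD replicate 1 (1.27%), 7 without AZD replicate 2 (2.27%) and 7 without Ento+AZD replicate 2 (2.46%). Without Ento+AZD replicate 1 it was 9 (2.35%), and without DMSO replicate 2 it was 44 (7.89%). Without the 4 libraries of replicate 2 it was 29 (3.1%). It was also 46 in a fit of only the groups compared (9.02%) and 45 without the filter on low counts (4.39%). Its difference from the count against Ento was not tested. The count against AZD was 0 without the 4 libraries of replicate 1 (0.401%) and 0 once the replicate number was dropped (0.0178%). In the latter fit no gene reached an unadjusted p under 0.05 either, against 5.41% of all genes lower. DESeq2 called 25, against 6.16%.

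The single agents were compared with each other at these doses. AZD gave lower levels than Ento for 4 genes, against 8.99% of all genes (edgeR's quasi-likelihood test, Benjamini-Hochberg adjusted): RACGAP1 (−0.53, SE 0.13, adjusted p = 0.0146), UBE2C (−0.93, SE 0.23, adjusted p = 0.0162), NUF2 (−0.58) and DSN1 (−0.52). This count stood near the background. The 4 genes were named after their values were seen, apart from UBE2C. None of the 51 was a DEG, against 2.80% of all genes, and none was higher, against 5.73%, nor at an unadjusted p under 0.05 in edgeR or DESeq2. The fit that leaves the replicate number out called none, with none at an unadjusted p under 0.05 (9.55% of all genes lower), and with replicate 2 left out 27 were lower, against 6.82%. In a fit of only the groups compared 32 were lower, against 13.5%, and without the filter 33, against 6.39%. The count was 23 without DMSO replicate 2 (10.4% of all genes), 13 without DMSO replicate 1 (9.76%), 11 without Ento+AZD replicate 2 (9.6%) and 7 without Ento replicate 2 (6.3%). It was 0 without any 1 of Ento replicates 1 and 3 and AZD replicates 2 and 3 or without replicate 3 of every group, against 3.77% to 5.38%. Whether the effect of both agents differed from the sum of the single effects on the log2 scale was tested by the interaction term. No gene of the 51 was called, nor was any of the 16835 genes (0%, edgeR), and DESeq2 called none of the 51. At an unadjusted p under 0.05, 3 of the 51 had a negative interaction in edgeR, against 5.59% of all genes, and 1 in DESeq2, against 4.05%, so that these counts stood near the background. The 3 in edgeR were SKA3 (−0.70, 95% interval −1.34 to −0.07), ZWINT (−0.66, −1.31 to −0.01) and MAD2L1 (−0.36, −0.72 to −0.0019), with an adjusted p of 0.485, 0.504 and 0.507. Without DMSO replicate 2, 4 genes were called lower, against 0.875% of all genes. The median interaction value of the 51 genes was −0.25.

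Levels of different genes can be set side by side only per length, here as CPM per kb of the longest coding transcript in GENCODE v44 on GRCh38. With DMSO, PTTG1 was the highest of the 51 at 159 ± 35.2 CPM per kb (SD, n = 3), followed by SMC4 (136 ± 23.9), TOP2A (115 ± 27.7), NUSAP1 (104 ± 26.1) and CKAP2 (94.1 ± 12.8). Neighbours in this order differed by less than their spread. UBE2C had 90.9 ± 20.9 CPM per kb and CDK1 86.5 ± 22.02. At the low end MIS12 had 9.39 ± 0.583 and NSL1 3.29 ± 0.504, and the long annotated transcript of NSL1 lowers its value. Within the Ndc80 complex the levels ran from 23.2 ± 6.08 for SPC24 to 53.00 ± 11.4 for NDC80. Exons of other genes overlap 16 of the 51 genes on the opposite strand and BUB1B, NUSAP1 and PRC1 on the same strand, and the use of strand in the counting is not given in the sources used here, so that their counts may hold reads of those neighbours. Reads can also be split with processed copies of similar sequence, among which CDC20P1 held 60 to 459 counts per library, AURKAP1 45 to 238, MAD2L1P1 31 to 155, BUB3P1 44 to 138 and RACGAP1P1 40 to 137.

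Other genes of the cell cycle, those of mitosis and also those of replication licensing, were taken from 8 lists. These were made up by function, also with earlier results of these data known. Their counts come from the fit with the replicate number and are not given without it. Of the 104 tested, 78 were lower and 6 higher after Ento+AZD exposure (edgeR's quasi-likelihood test, Benjamini-Hochberg adjusted), with a median log2 fold change of −0.73, where 20.8% of all genes were lower and 19.2% higher. With AZD 53 were lower and 3 higher, against 12.7% and 9.57% of all genes, and with Ento 4 were lower, against 3.66%, so that the Ento count stood at the background. All 12 mitotic kinesins, the motors of the spindle, were lower, with a median of −1.39, from −1.73 for KIF2C, which takes microtubules apart at centromeres, to −0.63 for KIF20B. Of the 18 CENP genes, most of which build the inner kinetochore, 15 were lower with a median of −0.91, from −1.49 for the motor CENPE to 0.01 for CENPP. All 10 regulators of mitotic entry were lower (median −1.22), led by cyclin A2 (CCNA2, −1.87), while the phosphatase CDC25B had −0.50. The 14 genes of replication licensing and of the helicase that opens DNA act earlier in the cycle, in G1 and S, and 13 of them were lower (median −1.37), from −2.34 for the licensing factor CDT1 to −0.13 for GINS4.

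The other lists had smaller medians, and their counts stand against the same 20.8% lower and 19.2% higher of all genes. A list of 10 further kinetochore and checkpoint genes also held the condensin II subunit NCAPH2, and 7 of the 10 were lower and 1 higher (median −0.49). They ran from −0.94 for KNTC1, which recruits dynein to kinetochores, to 0.32 for MAD1L1, the partner of MAD2. Of the 13 genes of cohesin and its regulators 9 were lower and 1 higher (median −0.35), from −1.38 for CDCA5 (sororin), which keeps cohesin closed, to 0.26 for the loader MAU2. In the group of MuvB, B-MYB and pocket proteins 5 of 10 were lower and 2 higher, the latter at the background (median −0.26), with −0.87 for RBL1 (p107) and 0.40 for E2F4. The 17 genes of the anaphase-promoting complex and its regulators centred on 0, with 7 lower, 2 higher and a median of 0.04. Its inhibitor FBXO5 (EMI1) had −1.01 and its subunit ANAPC16 0.44. UBE2C, the conjugating enzyme of that ligase, had −1.82.

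**Figure D5:**
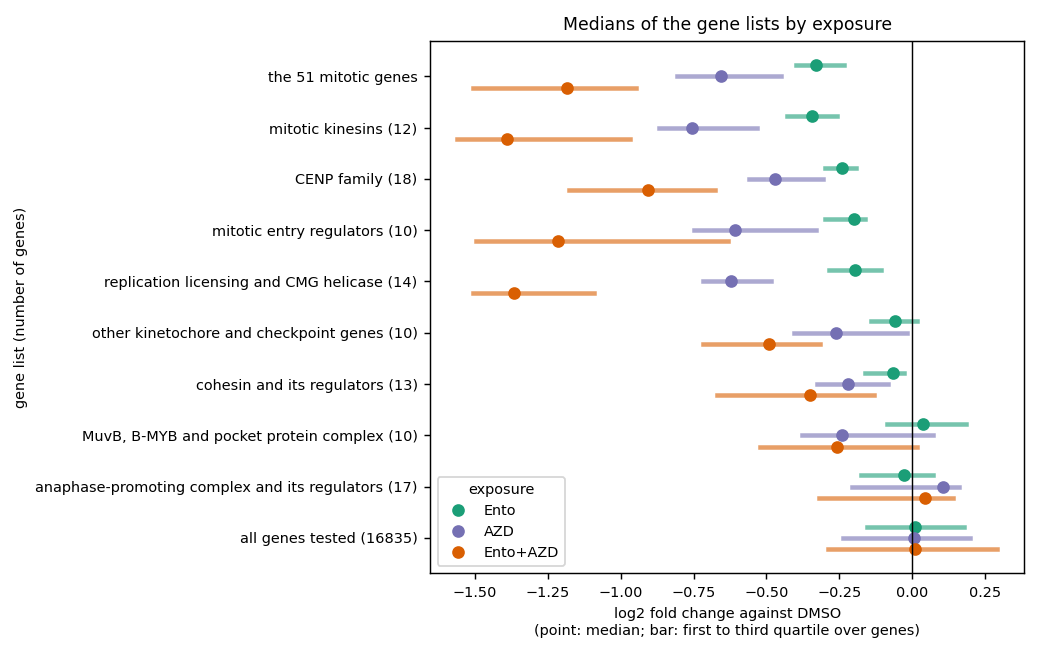
Median log2 fold change against DMSO (points) with the lower to upper quartile over genes (bars) after Ento, AZD and Ento+AZD exposure, for the 51 mitotic genes, 8 other lists and all tested genes. The 51 genes (−1.19), the kinesins (−1.39) and the licensing genes (−1.37) lie far to the left with Ento+AZD, and the anaphase-promoting complex (0.04) lies with all genes (0.01).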

How the data were processed

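Groups and replicate numbers came from the sample labels. The libraries were sequenced as single reads per the labels. According to the study's methods, the authors used CutAdapt (through TrimGalore) for trimming, GRCh38.p13 for alignment and Rsubread for counting. The counts were deposited as raw whole numbers for each gene symbol. The strand setting, the handling of reads that match several genes and the annotation release are not given in the sources used here. A deposited table of TMM-normalized values of the same libraries was not used.

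Genes with low counts were left out with filterByExpr of edgeR 4.0.16 (minimum count 10, minimum total 15, by group), and the libraries were TMM-normalized. In 1 model of all 12 libraries, group and replicate number were terms, the latter in place of the study's batch term, which is not defined further. The quasi-likelihood F-test was run on 16835 genes for 7 contrasts in R 4.3.3 (limma 3.58.1), with p-values adjusted by Benjamini-Hochberg and a threshold of 0.05. SE is the size of the log2 fold change over the root of F, and intervals are at 95%, without adjustment for the number of genes. Differences within replicate numbers are of log2 CPM with a prior count of 2. The fit was also run on simulated data. These had 1 mean per gene and no replicate effect, so that they cannot test the replicate term.

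To check whether the numbers pair the libraries, deviations from group means were correlated over the tested genes. Libraries with the same number in the labels had r of 0.213 to 0.703 (18 pairs), and those of other numbers and groups −0.627 to 0.325 (36 pairs). The numbers were therefore taken to pair the libraries, though the ranges overlap. Deviations cancel within a group, so that positive r for equal numbers brings negative r for the others. Libraries of a group differed by more than sampling noise (chi-square per degree of freedom 8.21 to 48.5).

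The 51 genes and all lists were chosen with earlier results of these data known. Named by rule were, in each of 9 groups by role, the 2 genes with the lowest and the 1 with the highest log2 fold change after Ento+AZD exposure, the 3 with the smallest interaction p, and in each other list the lowest and the highest. Promoters were printed for the 4 genes with both motifs and the lowest log2 fold change and for the named gene with the highest. Other genes were named after their values were seen. Alternatives were RLE normalization, no filter, DESeq2 1.42.0, only the groups compared, no replicate term, a fold threshold and each library left out. Leaving out each replicate number was chosen after seeing the data. Gene coordinates are from GENCODE v44 (GRCh38).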

Additional observations from a re-analysis of the deposited data

How the results depend on the processing

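The replicate block changed most counts. Without it the number of genes lower among the 51 was 5 for Ento+AZD against DMSO, beside 7.79% of all genes. It was 0 for Ento, AZD, Ento+AZD against Ento, Ento+AZD against AZD and AZD against Ento, beside 0.0178% to 2.2%. The numbers of the labels were taken to pair the libraries, so the fits with the block are those reported. Without a filter on low counts 33 genes were lower with Ento (3.52% of all genes), 45 for Ento+AZD against AZD (4.39%), 33 for AZD against Ento (6.39%) and 2 in the interaction (0.508%). Fits of only the groups compared gave 6 for Ento (3.94%), 46 for Ento+AZD against AZD (9.02%) and 32 for AZD against Ento (13.5%), and DESeq2 gave 5 for Ento (3.84%). A fold change over 2 was met by 0 genes with Ento (0.535% of all genes), 2 with AZD (2.53%), 21 for Ento+AZD against Ento (2.47%), 0 against AZD (0.422%) and 0 for AZD against Ento (2.80%). Leaving out 1 library or 1 replicate number gave 0 to 15 genes lower and 0 to 1 higher with Ento, beside 0.858% to 4.27% of all genes lower. With AZD 14 to 46 were lower (3.88% to 13.2%), and for Ento+AZD against AZD 0 to 44 (0.401% to 7.95%). For AZD against Ento the count was 0 to 27 (3.77% to 10.4%) and in the interaction 0 to 4 (0% to 0.875%). Ento+AZD against DMSO kept between 49 and 51 (14.1% to 20.4%), and RLE normalization moved none of the counts by over 1.5 times. Among 4037 values of single genes under alternatives 33 turned direction, all on leaving out libraries. With the direction kept, 374 values lost their call, 135 of them without the replicate number and 239 under other alternatives, and 123 gained 1. With libraries left out the Ento log2 fold changes ran over −0.63 to 0.13 (AURKB), −0.67 to 0.00042 (BIRC5), −0.16 to 0.053 (BUB3), −0.40 to 0.17 (CCNB1), −0.60 to 0.041 (CDC20), −0.45 to 0.013 (ECT2), −0.70 to 0.0054 (ESPL1), −0.45 to 0.036 (INCENP), −0.79 to 0.012 (MKI67), −0.12 to 0.032 (NSL1), −0.29 to 0.16 (SKA3), −0.58 to 0.035 (TOP2A), −0.59 to 0.094 (UBE2C), −0.17 to 0.45 (ZWINT), that of ZWINT with AZD over −0.50 to 0.10 and that of NSL1 against AZD over −0.11 to 0.0048. All 33 belong to genes and comparisons without a call in the fit of all libraries. The causes of these shifts were not tested. Every one of the 51 genes had at least 90 counts in every library. With 3 libraries a group, the precision was set by the spread left after the group and replicate terms.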
